A study of Mus musculus with 6 samples.

Results

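The replication-dependent histone genes of the mouse were examined in primary cardiomyocyte cultures from embryonic ventricles after knockdown of DNMT1, the enzyme that copies DNA methylation to the new strand during replication. All genes whose GRCm38 symbol begins with Hist1h, Hist2h, Hist3h or Hist4h were taken, whatever their values. They were 70 genes, of which 67 had a row among the 43629 gene rows, 6 of the H1 family, 20 of H2A, 16 of H2B, 12 of H3 and 13 of H4. *Hist1h2bh*, *Hist1h2bm* and *Hist2h2bb* had no matching row and were not analysed here. Of the 70 genes, 56 lay on chromosome 13, 10 on chromosome 3, 3 on chromosome 11 and 1 on chromosome 6. Those on chromosome 13 formed the Hist1 cluster, except the pseudogene *Hist1h2al*, which started far from the others at base 51202727. The cells came from ventricles of E13.5 CD-1 embryos, pooled within a litter and enriched with beads against VCAM1, a surface protein of embryonic cardiomyocytes that is not specific to them. The control group, 3 cultures, received 12 nM of a negative control siRNA, and the knockdown group, also 3 cultures, received 12 nM of a pool of 4 siRNAs against *Dnmt1*. In both groups RNA was taken 72 h after transfection and selected on poly(A) beads. The treatment tag of the knockdown samples names a DNMT3a siRNA, whereas their titles name DNMT1. The titles were followed.

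Replication-dependent histone genes supply the core histones H2A, H2B, H3 and H4 and the linker histone H1 that package DNA as it is copied in S phase. Their mRNAs are usually not polyadenylated. They end a few bases after a short stem-loop that is bound by SLBP, after cleavage directed by the U7 snRNP, and they are degraded when DNA synthesis stops. Some of these genes can also be read through to a downstream poly(A) signal, which gives polyadenylated mRNAs in cells that leave the cell cycle. A library made on poly(A) beads therefore sees these genes only in part.

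The stem-loop is shown because it is the feature that sets these mRNAs apart from other mRNAs of the cell cycle. A hairpin of the histone form was searched for, with a perfectly paired stem of 6 bases and a loop of 4. The first arm of the stem had to begin with GG, go on with C or T and end in T. Other paired hairpins were not counted. This form was found in the annotated transcripts of 46 of the 70 genes, against 135 of 21901 protein-coding genes (0.616%), the histone genes included. The form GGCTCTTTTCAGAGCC was carried by 26 of the 46. In the sequences below (GENCODE M21 transcripts, GRCm38, written 5′ to 3′ as DNA) the hairpin is in capitals and 5 bases of flank are in lower case.
Hist1h1c (chr13:23739507-23739532, plus strand): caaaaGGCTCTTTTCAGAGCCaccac
Hist1h1d (chr13:23555782-23555807, plus strand): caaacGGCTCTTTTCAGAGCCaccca
Hist1h1e (chr13:23621777-23621802, minus strand): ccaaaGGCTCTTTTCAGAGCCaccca
Hist1h4d (chr13:23581945-23581970, plus strand): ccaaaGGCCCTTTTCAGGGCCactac
Hist1h4f (chr13:23551286-23551311, minus strand): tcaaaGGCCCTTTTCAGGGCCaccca
Hist1h4a (chr13:23760795-23760820, minus strand): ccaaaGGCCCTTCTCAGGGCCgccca
Hist1h3c (chr13:23745042-23745067, minus strand): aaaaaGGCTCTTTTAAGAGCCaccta
Only 22 of the 46 transcripts ended within 60 bases of the hairpin, among them that of *Hist1h4f*, which ran 33 bases past it. The other 24 were annotated as longer RNAs. The transcript of *Hist1h1c* ran 840 bases past its hairpin and that of *Hist1h1e* 1153 bases. No such hairpin was found in the annotated transcripts of *Hist1h1a* and *Hist1h1b*, which says only that these annotated sequences do not hold it.

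Promoters of H1 genes are shown because 4 H1 genes rose, as described below, and *Hist1h1c* was not among them. RefSeq promoters (GRCm38.p6) were matched for 62 of the 70 genes, and 250 bases before each start were searched on both strands for the CAAT box (the letters CCAAT), for the TATA box (the letters TATAAA) and for the H1 box (the letters AAACACA). The latter motifs can share their A bases where they meet. The 130 bases before the start are given with matches in capitals (a CCAAT match on the other strand reads ATTGG).
Hist1h1b (chr13:21780626-21780755, minus strand): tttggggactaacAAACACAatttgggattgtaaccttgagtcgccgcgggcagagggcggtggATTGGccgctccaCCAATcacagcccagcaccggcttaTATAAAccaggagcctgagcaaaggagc
Hist1h1d (chr13:23554902-23555031, plus strand): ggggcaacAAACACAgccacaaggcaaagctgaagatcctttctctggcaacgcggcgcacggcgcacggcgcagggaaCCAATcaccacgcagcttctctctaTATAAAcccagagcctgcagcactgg
Hist1h1e (chr13:23622559-23622688, minus strand): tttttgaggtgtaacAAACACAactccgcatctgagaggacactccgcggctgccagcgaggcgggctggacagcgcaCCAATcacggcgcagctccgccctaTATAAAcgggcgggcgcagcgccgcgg
Hist1h1c (chr13:23738677-23738806, plus strand): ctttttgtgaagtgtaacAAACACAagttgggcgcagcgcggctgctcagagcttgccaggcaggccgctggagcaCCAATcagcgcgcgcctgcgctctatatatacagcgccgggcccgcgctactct
The CAAT box was present in 52 of 63 promoters of the histone genes (82.5%) and in 33.9% of all 32851 promoters. By family it was in all 6 H1, 18 H2A and 17 H2B promoters and in 8 of 10 H3 promoters. Of 12 H4 promoters only 3 held it (25.0%). The H1 box was present in 5 of 6 H1 promoters and in 6.25% of all promoters. It was present before *Hist1h1c* as well as before *Hist1h1b*, *Hist1h1d* and *Hist1h1e*, and was not matched before *Hist1h1a*. The exact letters TATAAA were matched before *Hist1h1a*, *Hist1h1b*, *Hist1h1d* and *Hist1h1e* and not before *Hist1h1c*, a line-up made after the calls were known. The stretch shown before *Hist1h1c* holds tatatata, a form that was not searched for, so a TATA box is not excluded there. TATAAA was present in 46.0% of the promoters of the histone genes and in 12.4% of all promoters. Histone genes that were not called, such as *Hist1h4i* and *Hist1h2bg*, carry it too.

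Reads assigned to genes ranged from 27852412 to 35896018 in the negative siRNA libraries and from 13739561 to 16186310 in the DNMT1 siRNA libraries. *Dnmt1* itself, at 3028 ± 367 normalized counts with negative siRNA, fell to 741 ± 65.8 (SD, n = 3 cultures, log2 fold change -2.03 ± 0.11 SE, edgeR adjusted p = 0.000192), and *Dnmt3a* stood at 5453 ± 510 and 6425 ± 73.9 (adjusted p = 0.0919). Other properties of the libraries moved with the treatment. Reads outside annotated exons made up 14.6 to 17.5% of uniquely aligned reads with negative siRNA and 24.4 to 31.95% with DNMT1 siRNA. Olfactory and vomeronasal receptor genes, 1661 genes that these cells should not use, took 7.97, 13.4 and 8.72 CPM (reads scaled to equal library totals) with negative siRNA and 2.66, 43.8 and 39.8 with DNMT1 siRNA. Calls of marker genes, made as described below, stand beside 4.26% of all tested genes called higher and 2.23% called lower. All 15 cardiomyocyte markers passed the filter and 11 rose, and their summed normalized counts went from 51745 to 69316 with negative siRNA to 120163 to 147899 with DNMT1 siRNA. Of 9 tested fibroblast markers 4 fell, and their sum, from 783577 to 1209210 and from 595053 to 634931, was above that of the cardiomyocyte markers in every library. Of 10 endothelial markers 3 rose (summed 3892 to 4826 and 7417 to 7569). Of 7 tested smooth muscle and pericyte markers 1 fell (118088 to 175017 and 99002 to 103130), and so did 1 of 7 epicardial markers (35519 to 41052 and 39219 to 41116). Of 7 macrophage markers 0 were called by edgeR, with 4 at an unadjusted p below 0.05 and 4 called lower by DESeq2 (235 to 652 and 202 to 324), and of 7 erythroid markers 1 could be tested (11.03 to 28.0 and 26.8 to 62.7, *Hba-a2* at 0). The part of these shifts in the results below was not tested, and in bulk RNA fewer cells of a type and less RNA per cell cannot be told apart.

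In bulk RNA of the VCAM1-enriched cells given DNMT1 siRNA, 4 linker histone genes and 2 H4 genes rose, between 2.59-fold and 6.41-fold. No histone gene was called lower. Counts were normalized by TMM to the libraries' effective sizes, tested with edgeR's quasi-likelihood test over 15470 genes, and called at an FDR below 0.05 and a fold change above 1.5. Of the 70 histone genes, 21 passed the filter on low counts, 6 were called up-regulated and 0 down-regulated. The 6 were *Hist1h1a*, *Hist1h1b*, *Hist1h1d*, *Hist1h1e*, *Hist1h4d* and *Hist1h4f*. Over all tested genes, 4.26% were called up-regulated and 2.23% down-regulated. DESeq2 and edgeR's exact test also called 0 histone genes down-regulated. An unadjusted p below 0.05 was reached by 13 of the 21 histone genes, 1 of them lower (*Hist1h1c*). Over all 15470 tested genes at least 1928 reached it, namely those with an FDR below 0.05. The full number was not counted, so counts at an unadjusted p, here and elsewhere, have no exact background. In 11 of the 21 all DNMT1 siRNA cultures lay above all negative siRNA cultures, against 18.3% of all tested genes, and in 1 they lay below, against 17.7%.

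The count over tested genes depends on the filter, which kept a gene with at least 0.454 CPM in 3 libraries. Of the 21 genes, 10 reached this in all DNMT1 siRNA libraries but not in all negative siRNA libraries, so that their difference helped them to be tested. Of these, 4 were called, namely *Hist1h1a*, *Hist1h1b*, *Hist1h4d* and *Hist1h4f*. Of the 10 genes that reached it in all 6 libraries, 2 were called, *Hist1h1d* and *Hist1h1e*. When all genes with at least 1 read were fitted, 58 histone genes could be used, and 50 of these had a fold change above 1 (86.2%) against 59.2% of all 31775 genes. Their median log2 fold change was 1.05, against 0.11 over all genes.

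**Figure D1:**
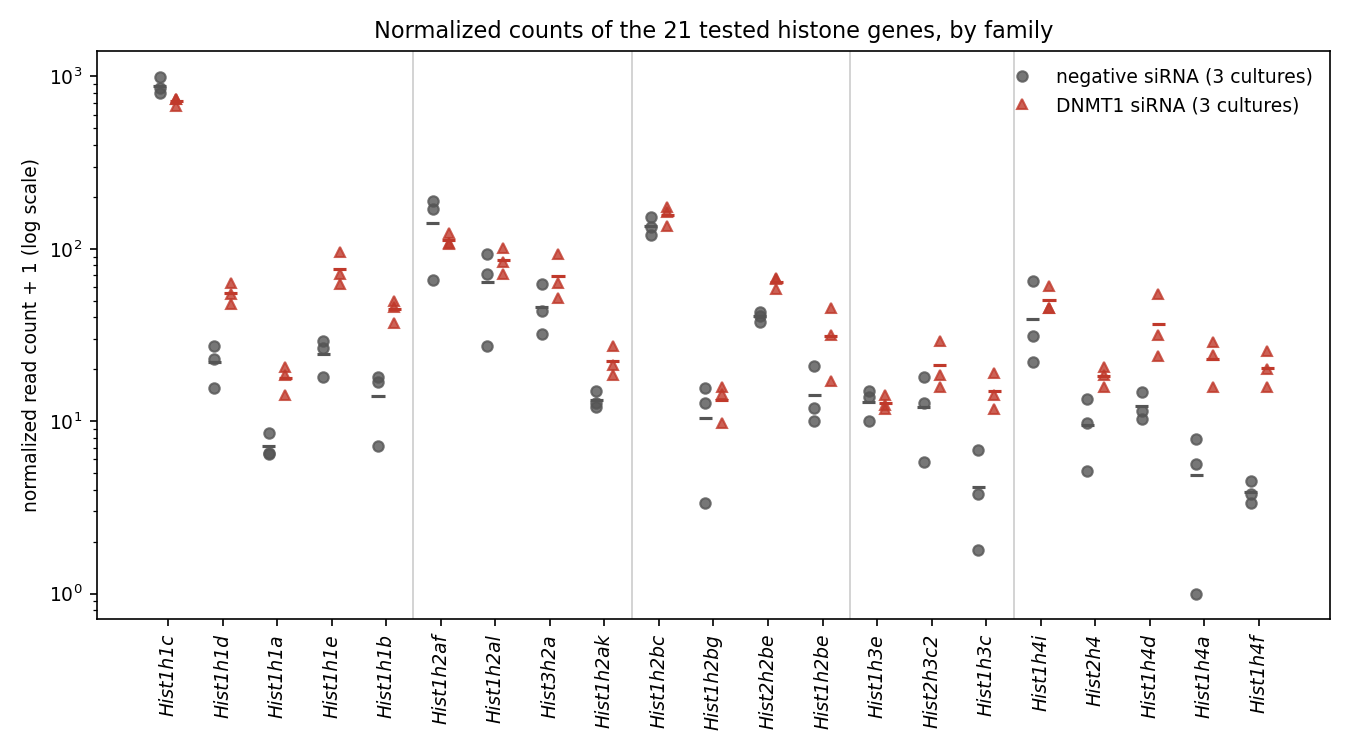
Normalized read count plus 1 (log axis) of the 21 histone genes that passed the filter, by family, in 3 negative siRNA cultures (grey circles) and 3 DNMT1 siRNA cultures (red triangles), with horizontal bars at the group means. *Hist1h1c* stands between 669 and 996 in all cultures, while the other H1 genes lie below 30 with negative siRNA and are separated between groups.

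The H1 genes encode the linker histones, which bind DNA between nucleosomes. *Hist1h1b* had 15.8, 6.20 and 17.1 normalized counts with negative siRNA and 36.2, 45.2 and 49.1 with DNMT1 siRNA. The groups did not overlap, and the log2 fold change was 1.73 ± 0.38 (edgeR adjusted p = 0.0246). *Hist1h1e* had 28.0, 25.5 and 17.1 against 61.7, 94.7 and 70.3. It rose by a log2 fold change of 1.67 ± 0.28 (edgeR adjusted p = 0.00859), again without overlap. Part of its exons is shared with *Hist1h2be* and *Gm11398* in the annotation, and reads on shared exons may have been left out or divided. *Hist1h1a* had 7.59, 5.51 and 5.44 against 17.4, 13.1 and 19.6, and its log2 fold change was 1.40 ± 0.35 (edgeR adjusted p = 0.0381), a call that DESeq2 did not make. Before normalization it had 13, 8 and 7 reads against 13, 9 and 12 in the smaller DNMT1 siRNA libraries, so that its fold change appears once reads are scaled to library size. The reads of *Hist1h1d* (25, 32 and 34 against 35, 37 and 38) were also closer before this scaling. *Hist1h1d* had 14.6, 22.1 and 26.4 against 46.9, 53.9 and 62.1, with a log2 fold change of 1.37 ± 0.28 (edgeR adjusted p = 0.0202). Its annotated exon length is 7425 bases, so that its reads need not all come from the short histone mRNA.

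*Hist1h1c*, the H1 gene known to be used in non-dividing cells too, went the other way without passing the test. It had 854, 797 and 996 normalized counts with negative siRNA and 735, 742 and 669 with DNMT1 siRNA, and its log2 fold change was -0.30 ± 0.10 (edgeR adjusted p = 0.0872). Its groups did not overlap. It held 50.4% of all reads on histone genes. Per length it stood at 26.1 RPKM with negative siRNA and 21.1 RPKM with DNMT1 siRNA, whereas the 4 up-regulated H1 genes lay between 0.130 and 0.807 RPKM with negative siRNA and between 0.337 and 2.70 RPKM with DNMT1 siRNA. The remaining H1 gene, *Hist1h1t*, known from the testis, did not pass the filter.

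The H2A and H2B genes encode the dimer that flanks the H3-H4 core of the nucleosome, and 0 of the 8 tested were called in the main test or by DESeq2. *Hist2h2be* was called up-regulated by edgeR's exact test (adjusted p = 0.0495) and with at least 10 counts in every sample (adjusted p = 0.0457), and *Hist1h2be* when no filter was set (adjusted p = 0.043), both by edgeR. Over all alternatives the adjusted p ran from 0.0457 to 0.574 for *Hist2h2be* and from 0.043 to 0.938 for *Hist1h2be*. An unadjusted p below 0.05 was reached by 3 of the 8. Among H2A genes, *Hist1h2af* had 188, 168 and 65.3 normalized counts against 106, 106 and 123 (log2 fold change -0.34 ± 0.35, edgeR adjusted p = 0.557). The spread in the negative siRNA group was larger than the difference, and without negative siRNA replicate 3 the gene was called down-regulated (log2 fold change -0.68, edgeR adjusted p = 0.0323, with 0.0323 to 0.911 over its alternatives). *Hist1h2al*, a processed pseudogene in the annotation, had 92.8, 26.2 and 70.0 against 101, 83.1 and 70.3 (edgeR adjusted p = 0.526). Its groups overlapped. *Hist1h2ak* had 14.0, 11.03 and 11.7 against 20.1, 17.5 and 26.2 without overlap, at a log2 fold change of 0.78 ± 0.30 that missed the threshold (edgeR adjusted p = 0.133). *Hist3h2a*, of the small cluster on chromosome 11, had 61.9, 31.0 and 42.8 against 92.5, 51.0 and 62.1 (edgeR adjusted p = 0.261), and its exons overlap those of *Trim17*.

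Among H2B genes, *Hist1h2bc* was the most abundant, with 152, 119 and 132 normalized counts against 174, 134 and 162 (log2 fold change 0.22 ± 0.16, edgeR adjusted p = 0.401). *Hist2h2be*, which is known to give a polyadenylated mRNA and has a poly(A) signal near its annotated end, had 36.8, 39.98 and 41.99 against 67.0, 65.6 and 57.2. These groups were well apart and the log2 fold change was 0.68 ± 0.20, yet the adjusted p was 0.0583 (edgeR). *Hist1h2be* had 19.8, 8.96 and 10.9 against 16.1, 30.6 and 44.2 (log2 fold change 1.15 ± 0.45, edgeR adjusted p = 0.134), and *Hist1h2bg* had 11.7, 14.5 and 2.33 against 13.4, 8.75 and 14.7 (edgeR adjusted p = 0.743). Both overlapped between groups.

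Histones H3 and H4 form the tetramer at the centre of the nucleosome, which is laid down on new DNA before H2A and H2B. *Hist1h4f* had the largest log2 fold change of the 21 tested histone genes, 2.68 ± 0.40 (edgeR adjusted p = 0.00564), with 3.50, 2.76 and 2.33 normalized counts against 14.8, 18.9 and 24.5. It was counted from 6, 4 and 3 reads against 11, 13 and 15 reads, so that its fold is poorly bounded although the groups were far apart. *Hist1h4d* had 10.5, 13.8 and 9.33 normalized counts against 22.8, 30.6 and 54.0 (log2 fold change 1.65 ± 0.38, edgeR adjusted p = 0.0303). *Hist1h4a* had 4.67, 6.89 and 0 against 14.8, 23.3 and 27.8, and at a log2 fold change of 2.41 ± 0.68 it missed the threshold (edgeR adjusted p = 0.0522), while DESeq2 and edgeR's exact test called it up-regulated. *Hist2h4*, on chromosome 3, had 8.75, 4.14 and 12.4 against 14.8, 17.5 and 19.6 (log2 fold change 1.03 ± 0.43, edgeR adjusted p = 0.155). *Hist1h4i*, the H4 gene with the most reads, had 63.6, 30.3 and 20.996 against 44.3, 59.8 and 44.2, and its groups overlapped (log2 fold change 0.35 ± 0.40, edgeR adjusted p = 0.605).

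Of 3 tested H3 genes 0 were called by edgeR's main test or DESeq2 and 1, *Hist1h3c*, by edgeR's exact test and at an unadjusted p below 0.05. *Hist1h3c* had 5.84, 2.76 and 0.778 normalized counts against 10.7, 13.1 and 18.0, without overlap, and a log2 fold change of 2.03 ± 0.58 (edgeR adjusted p = 0.0548). *Hist2h3c2* had 16.9, 4.83 and 11.7 against 28.2, 17.5 and 14.7 (log2 fold change 0.84 ± 0.48, edgeR adjusted p = 0.286). *Hist1h3e* had 12.8, 8.96 and 14.0 against 10.7, 13.1 and 11.4, and its log2 fold change was -0.02 ± 0.34 (edgeR adjusted p = 0.977).

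**Figure D2:**
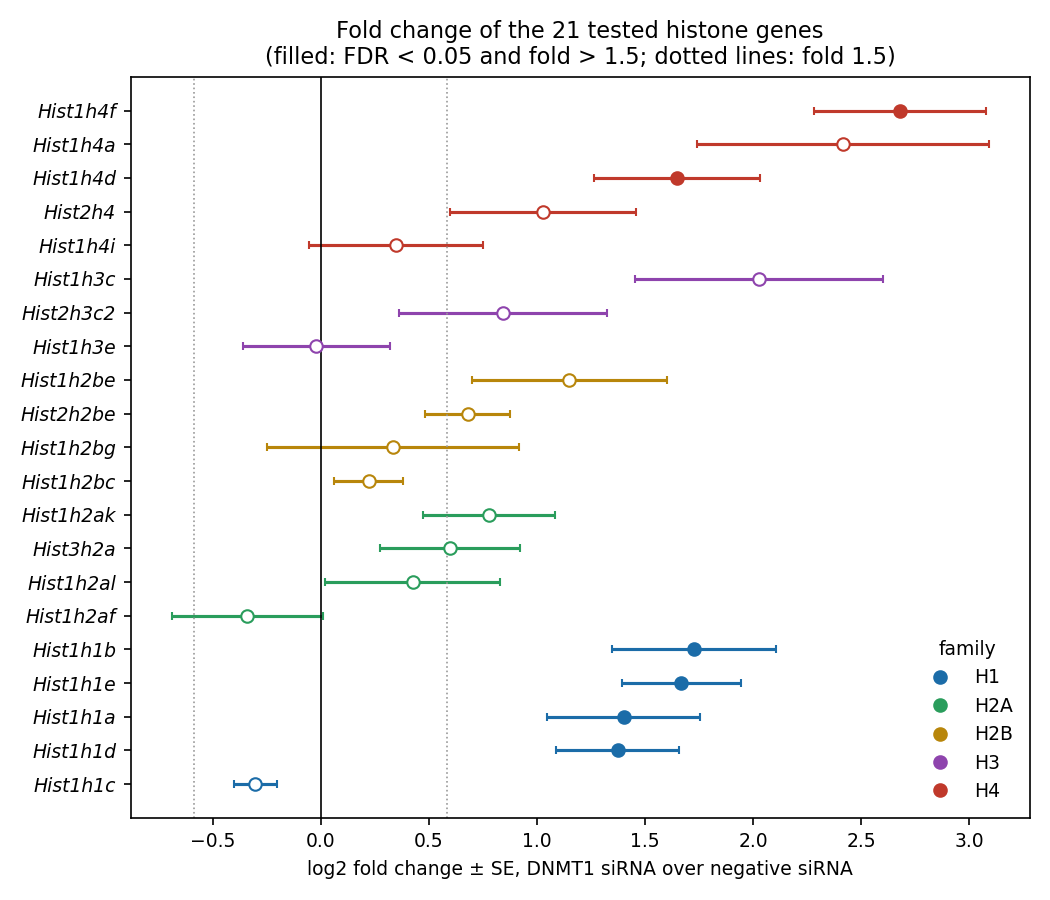
Log2 fold change of DNMT1 siRNA over negative siRNA with its standard error for the 21 tested histone genes, coloured by family, filled where the FDR was below 0.05 and the fold above 1.5 (dotted lines). The filled points are 4 H1 genes and 2 H4 genes, and *Hist1h1c*, *Hist1h2af* and *Hist1h3e* lie below 0.

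Summed over all members with a row, the families differed in how they moved, and no test was made on the sums. The H1 sum was 921, 857 and 1062 normalized counts with negative siRNA and 898, 949 and 870 with DNMT1 siRNA, with overlap, since it was mostly *Hist1h1c*. Without *Hist1h1c* it was 67.1, 59.97 and 66.1 against 164, 207 and 201, a ratio of means of 2.96. The H4 sum was 103, 68.9 and 59.9 against 143, 192 and 222 (ratio 2.41), and the H3 sum was 57.8, 28.3 and 29.5 against 76.4, 75.8 and 83.4 (ratio 2.04). The groups were apart in both. The H2B sum was 245, 199 and 201 against 292, 275 and 304 (ratio 1.35), also without overlap. The H2A sum was 379, 263 and 206 against 365, 319 and 329 (ratio 1.19) and overlapped. Without its most abundant member *Hist1h4i* the H4 ratio was 3.52, without *Hist1h2bc* that of H2B was 1.66, and without *Hist1h2af* that of H2A was 1.59, then with no overlap. Without negative siRNA replicate 1 the log2 ratio of the H3 sums was 1.44, against 1.03 with all cultures, and without negative siRNA replicate 3 that of H1 turned to 0.03, against -0.06.

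**Figure D3:**
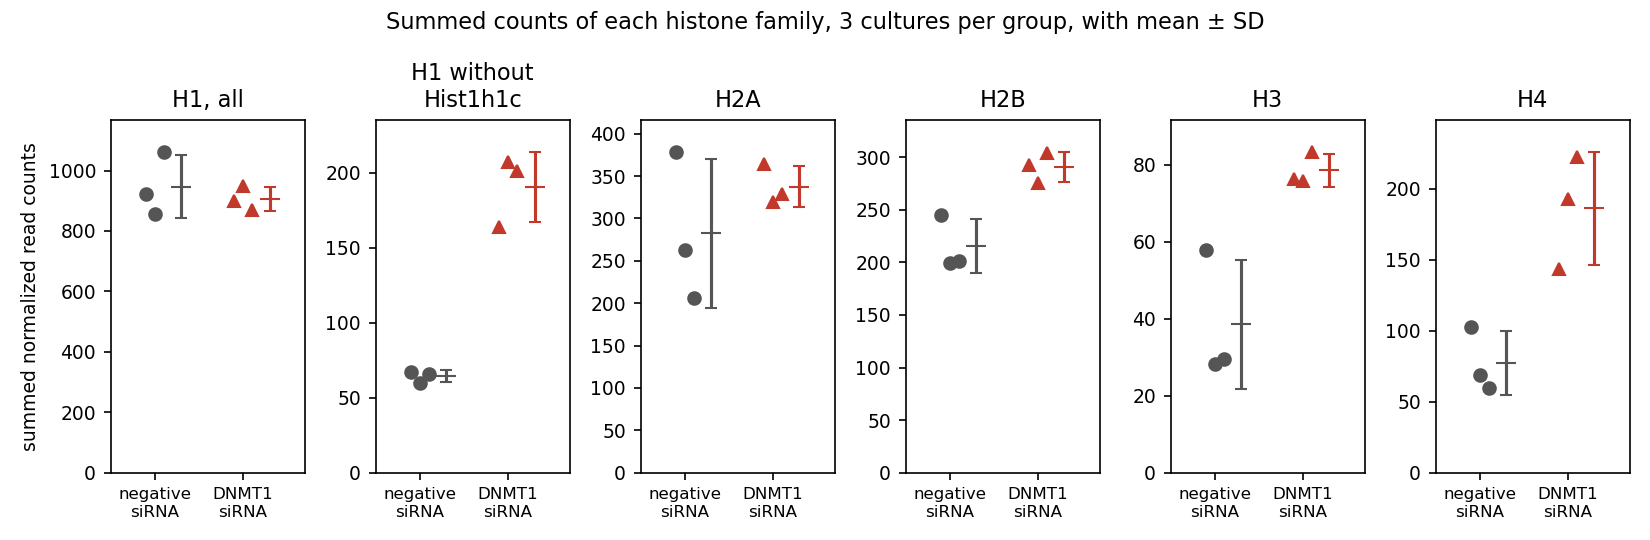
Summed normalized read counts of the members of each histone family in the 3 cultures of each group, with mean and SD beside them, each panel with its own axis from 0. The groups are apart for H1 without *Hist1h1c*, H2B, H3 and H4, and overlap for H1 with *Hist1h1c* and for H2A.

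Below the filter stood 46 histone genes. Of these, 9 had 0 reads in all 6 libraries, where the limit that 3 reads would give is between 0.0836 and 0.218 CPM depending on the library. The other 37 had between 1 and 49 reads over the 6 libraries, with a median of 12. Summed, the 46 genes had 81.7, 67.6 and 48.2 normalized counts with negative siRNA and 127, 172 and 165 with DNMT1 siRNA, a ratio of 2.35. *Hist4h4*, the single gene of the fourth cluster, had 0, 1 and 1 reads against 6, 5 and 5, in the smaller libraries. When no filter was set it was called up-regulated (log2 fold change 3.77, edgeR adjusted p = 0.00569), on these few reads. On the same chromosome 11 cluster as *Hist3h2a*, *Hist3h2ba* had 15, 3 and 3 reads against 1, 1 and 2, and the pseudogene *Hist3h2bb-ps* had 0, 0 and 0 against 0, 1 and 1. No direction can be drawn from the latter pair at this depth.

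Histone genes are copies of each other, and a read of 75 bases that fits several copies is not counted for any. The share of a gene's windows of 75 bases that occurs in no other annotated gene was used as a description of this. Its median was 72.9% for the 21 tested genes, 44.6% for the 37 with reads below the filter and 6.90% for the 9 with 0 reads. Among these 9, *Hist2h2aa1*, *Hist2h2aa2*, *Hist2h3b* and *Hist2h3c1* had no unique window at all, so that 0 reads says nothing of their level. *Hist1h2aa*, also among the 9, had 82.6% unique windows. The 6 called genes had 71.6 to 100% unique windows. *Hist1h2af*, with 13.2%, had the most reads of the H2A genes, and its level is therefore uncertain. The share of alignments that were not unique was 41.3 to 42.5% with negative siRNA and 48.3 to 52.9% with DNMT1 siRNA, and its part in the counts of near-identical genes was not tested.

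**Figure D4:**
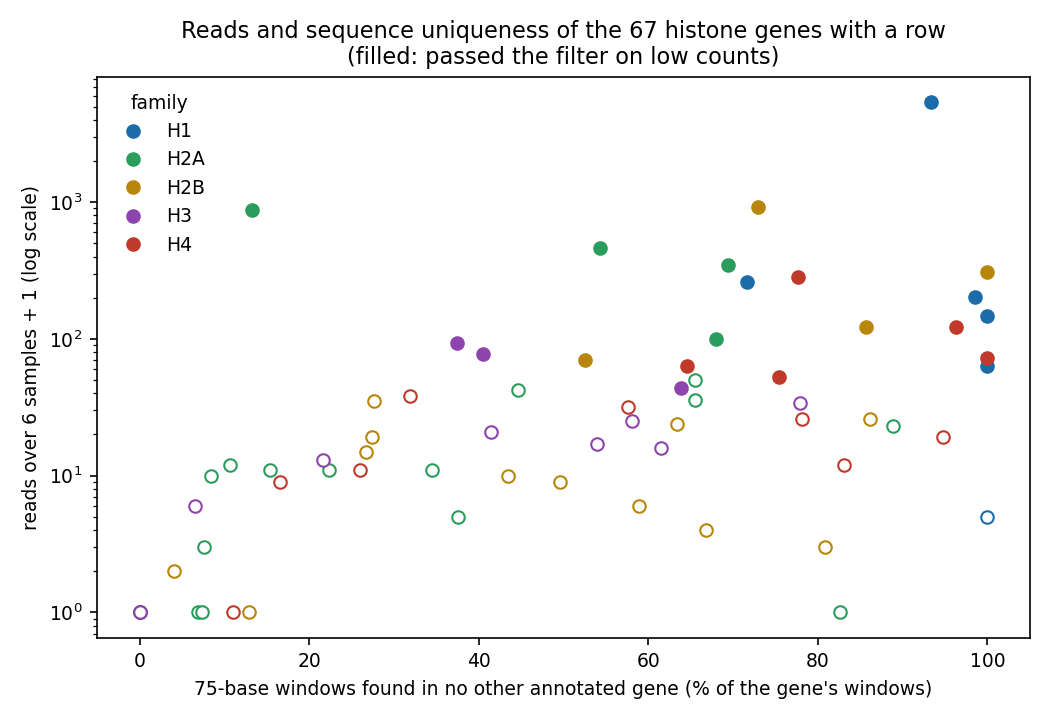
Reads over the 6 libraries plus 1 (log axis) against the share of the gene's 75-base windows found in no other annotated gene, for the 67 histone genes with a row, coloured by family and filled where the gene passed the filter. Genes with few unique windows lie low, with *Hist1h2af* as the exception at 13.2%. Genes with many unique windows lie high or low, for example *Hist1h1t* at 100% with 4 reads.

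None of the 97 other genes of the cell cycle that were listed was called. Of 43 S phase genes all were tested and 0 were called. Their median was -0.16 on the log2 scale, against -0.01 over all tested genes and 0.84 over the 21 histone genes, a median that the filter favours. In edgeR, 38 of the 43 had a fold change below 1, 6 had an unadjusted p below 0.05, all of them lower, and DESeq2 and edgeR's exact test called 0. *Mcm6*, of the replicative helicase and named after its values were seen, had 2271, 2180 and 2015 normalized counts against 1526, 1627 and 1645 and was the 1 gene past the FDR limit, short of the fold limit (log2 fold change -0.43 ± 0.07, edgeR adjusted p = 0.0091). *Pcna*, the clamp of the replicative polymerases, had 355, 318 and 278 normalized counts against 318, 305 and 296 (log2 fold change -0.05 ± 0.12, edgeR adjusted p = 0.806). *Mcm2*, of the same helicase, had a log2 fold change of -0.16 ± 0.10 and *Ccne2*, cyclin E2, of -0.14 ± 0.17 (edgeR adjusted p = 0.338 and 0.618). Of 54 G2 and M phase genes 0 were called, with a median of -0.10, 9 at an unadjusted p below 0.05, 3 of them lower, and none by DESeq2 or the exact test. In edgeR 1 of the 54 was past the FDR limit, higher with DNMT1 siRNA and short of the fold limit. *Mki67* had 6680, 4849 and 4948 against 5715, 6068 and 6061 (log2 fold change 0.11 ± 0.12, edgeR adjusted p = 0.572), and *Top2a*, the topoisomerase of dividing cells, had 5052, 4031 and 3613 against 3861, 3832 and 3904 (log2 fold change -0.13 ± 0.11, edgeR adjusted p = 0.489). The fold changes of these 97 genes ran from -0.70 to 0.41 on the log2 scale, and those of the 21 tested histone genes from -0.34 to 2.68. The histone genes *Hist1h1c*, *Hist1h2af*, *Hist1h2bc*, *Hist1h2bg*, *Hist1h3e* and *Hist1h4i* lay within the range of the cell cycle genes.

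**Figure D5:**
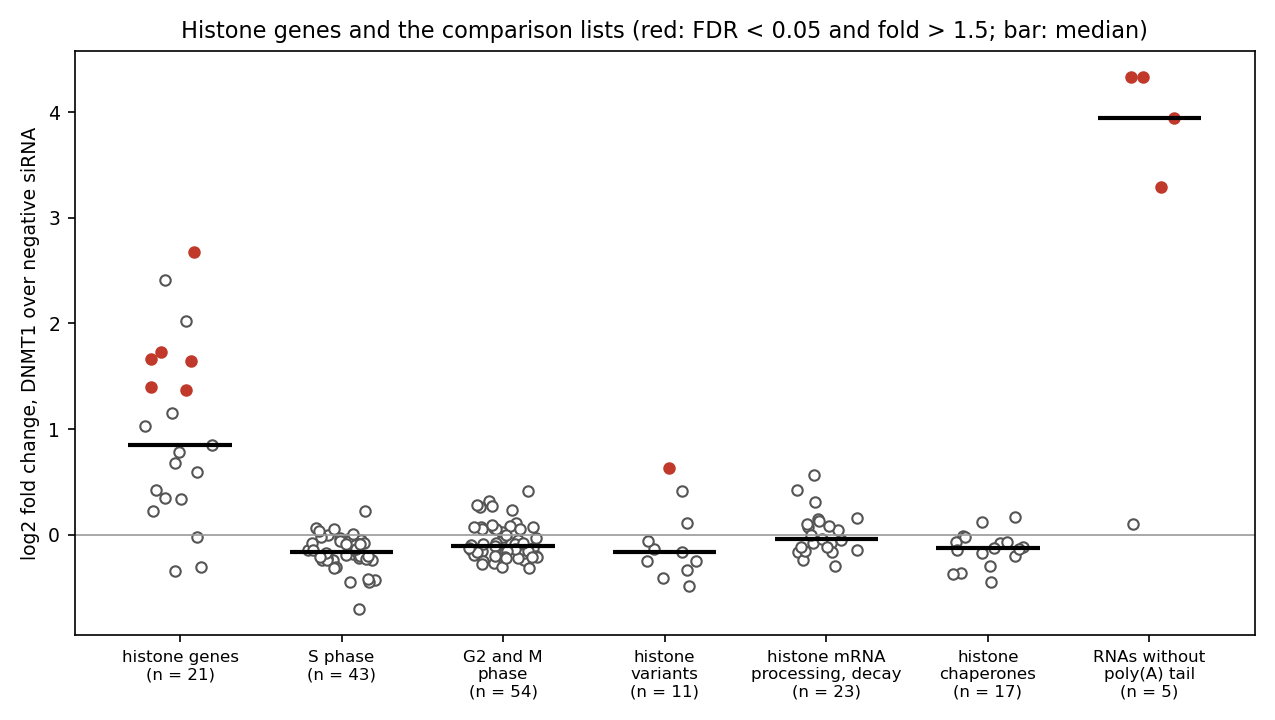
Log2 fold change of DNMT1 siRNA over negative siRNA of each tested gene in the histone genes and in 6 comparison lists, with called genes in red and medians as black bars. The S phase, G2 and M phase and chaperone lists lie around 0 with no red point, while 4 of 5 tested RNAs made without a poly(A) tail lie above 3.

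Of 23 genes that make or destroy histone mRNA 0 were called by edgeR, DESeq2 or the exact test, with 4 at an unadjusted p below 0.05 and 3 at an FDR below 0.05. *Slbp*, which binds the stem-loop, had 420, 358 and 380 normalized counts against 377, 364 and 388 (log2 fold change -0.04 ± 0.10, edgeR adjusted p = 0.829). *Npat*, the transcription coactivator of the histone loci, had a log2 fold change of 0.04 ± 0.07, and *Casp8ap2*, which is needed at the same loci, of -0.08 ± 0.11 (edgeR adjusted p = 0.744 and 0.660). *Lsm10* and *Lsm11*, the proteins of the U7 particle, had -0.16 ± 0.14 and -0.15 ± 0.15 (edgeR adjusted p = 0.485 and 0.533). The 3 genes past the FDR limit stayed under the limit on fold change. They were chosen for naming after their values were seen. They were the exonuclease *Xrn1* (log2 fold change 0.56 ± 0.09, adjusted p = 0.00814), the cap-binding *Ncbp2* (0.31 ± 0.08, adjusted p = 0.0483) and the uridylyltransferase *Tut4* (-0.29 ± 0.06, adjusted p = 0.0241), all by edgeR. Of 17 histone chaperone genes 0 were called by any of these tools and 0 reached the FDR limit, with 7 at an unadjusted p below 0.05, 6 of them lower. Their median log2 fold change was -0.13.

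Replication-independent variants, whose mRNAs are spliced and polyadenylated, gave 1 call in 11. *H3f3a*, a gene of histone H3.3, had 208, 210 and 163 normalized counts against 325, 297 and 276 and rose by a log2 fold change of 0.63 ± 0.14 (edgeR adjusted p = 0.0241). *H3f3b*, which encodes the same protein, had 4914, 4793 and 4244 against 3682, 3545 and 3263, and its log2 fold change of -0.41 ± 0.08 was past the FDR limit (edgeR adjusted p = 0.0165) but short of the fold limit. *H2afx*, *H2afz* and *H1f0*, the variants H2A.X and H2A.Z and the linker variant H1.0, had log2 fold changes of 0.11, -0.17 and -0.06, none past the test.

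Of 13 listed RNAs that are made without a poly(A) tail and code for no protein, 5 passed the filter, 4 of these rose and *Malat1* was not called. Over all tested genes 4.26% were called up-regulated. *Rpph1*, the RNA of RNase P, had 27.4, 22.7 and 15.6 normalized counts against 275, 404 and 674 (log2 fold change 4.33 ± 0.37, edgeR adjusted p = 0.000781). *Rprl3*, of the same kind, had a log2 fold change of 4.33 ± 0.38, *Rmrp*, the RNA of RNase MRP, of 3.95 ± 0.30, and *Rn7sk*, the 7SK RNA, of 3.29 ± 0.20 (edgeR adjusted p = 0.000837, 0.000615 and 0.000313). *Malat1*, which ends in a triple helix, had 0.10 ± 0.22 (edgeR adjusted p = 0.801). With negative siRNA *Rmrp* had 10, 16 and 11 reads and *Rprl3* 7, 9 and 7. Both reached the filter's 0.454 CPM in all DNMT1 siRNA libraries but not in all negative siRNA libraries. Their difference thus helped them to be tested. Among other short non-coding genes 1 of 6 tested snRNAs and 1 of 5 scaRNAs rose, and 0 of 23 snoRNAs were called by edgeR, DESeq2 or the exact test, with 4 at an unadjusted p below 0.05. The snRNA was *Gm25360* (1, 4 and 5 reads against 18, 32 and 19). The scaRNA was *Scarna13* (4, 5 and 0 against 8, 11 and 7). Both also reached the filter through the DNMT1 siRNA libraries. How much the capture of RNAs without a tail differed between the groups was not tested, and with poly(A) selection alone a change in histone mRNA level and a change in its polyadenylation cannot be told apart.

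The annotated 3′ ends of the histone genes were set beside their fold changes, as a split made after the values were seen. Of the 21 tested genes, 7 had a poly(A) signal within 40 bases of the annotated end, and 0 of these were called by edgeR's main test. They were *Hist1h1c*, *Hist1h2be*, *Hist1h4a*, *Hist1h4i*, *Hist2h2be*, *Hist2h4* and *Hist3h2a*, and their median was 0.68 on the log2 scale. DESeq2 called *Hist1h4a* among them and edgeR's exact test called *Hist1h4a* and *Hist2h2be*, and 5 had an unadjusted p below 0.05. The 14 without such a signal held the 6 called genes and had a median of 1.11. No difference between these sets was tested. Of the called genes, *Hist1h4f* ended near its hairpin, *Hist1h1d*, *Hist1h1e* and *Hist1h4d* were annotated past it and *Hist1h1a* and *Hist1h1b* had none annotated. Only 1 tested gene ended near its hairpin, so that the end classes could not be compared.

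Genes with counts as low as these, genes with 1 exon and background reads were described beside the histone genes. Among 5017 tested genes in the range of average counts of the tested histone genes (*Hist1h1c* left out), 6.30% were called up-regulated and the median log2 fold change was 0.12. Among 264 tested protein-coding genes with 1 exon outside the histone genes, 12 were called up-regulated and 13 down-regulated, with a median of -0.02. At the read density of the receptor genes, a tested histone gene would have taken at most 0.584 reads in a negative siRNA library and 0.917 reads in a DNMT1 siRNA library. With DNMT1 siRNA replicate 1, which had the fewest receptor reads of all 6 libraries, as the only DNMT1 siRNA culture, 0 histone genes were called, and 12 genes rose and 3 fell in all.

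Leaving out a DNMT1 siRNA culture removed more calls than leaving out a negative siRNA culture. Without DNMT1 siRNA replicate 1, 2 or 3, the number of up-regulated histone genes was 3 (*Hist1h1e*, *Hist1h4d*, *Hist1h4f*), 1 (*Hist1h4f*) and 2 (*Hist1h1e*, *Hist1h4f*). Without negative siRNA replicate 1, 2 or 3 it was 5, 6 and 5. Over all genes 316, 255 and 314 were up-regulated without a DNMT1 siRNA culture and 630, 823 and 647 without a negative siRNA culture. *Hist1h4d* was not called without negative siRNA replicate 1 or 3. *Hist1h1a* was not called without negative siRNA replicate 2 or 3 (edgeR adjusted p = 0.0645 and 0.0762). The counts without negative siRNA replicate 2 and without replicate 3 therefore include histone genes outside the 6. *Hist1h4f* and *Hist1h1e* were each called in 15 alternatives, of 16 and 17 in which they could be fitted, whereas *Hist1h1a* was called in 6 of 16 and was not called by DESeq2 (adjusted p = 0.135, with 0.0185 to 0.539 over its alternatives).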

How the data were processed

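RNA-Seq (single-end reads of 75 bases) was made from 3 cultures per treatment. Per the labels and methods, the authors cleaned reads after FastQC, mapped them to mm10 with TopHat2 and counted them with HTSeq on Ensembl GRCm38 genes. The counting mode, strand setting and versions are not given in the sources used here. The authors deposited raw counts per gene, without normalization, and 5 rows of totals naming no gene were kept out of library sizes (reads outside exons were 14.6 to 31.95% of unique reads).

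Counts were tested with edgeR 4.0.16 (R 4.3.3) by the quasi-likelihood F test after TMM and filterByExpr (minimum count 10, total 15), with Benjamini-Hochberg adjustment over 15470 genes. Calls needed an FDR below 0.05 and a fold above 1.5. DESeq2 1.42.0 was an alternative. Standard errors are the log2 fold change over the square root of F. Normalized counts are counts scaled to the geometric mean of the TMM-adjusted library sizes. RPKM used these sizes and GENCODE M21 exon lengths. Fits were tested on simulated data. Sources do not say that replicates are independent beyond separate cultures, so p-values measure the spread between cultures.

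Named were all histone genes that passed the filter (at most 5 per family), those of clusters 3 and 4, and in each list set genes and the largest calls. The members and lists were chosen with earlier results of these data known. Uniqueness was computed over annotated transcripts only. No intervals were made for low counts, and the standard errors of fold changes include the spread between cultures.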

Additional observations from a re-analysis of the deposited data

Results flagged for a closer look

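The totals that the counter wrote for reads given to no gene lie outside the comparisons and were above the control level in every DNMT1 siRNA library. Reads outside annotated exons were at least 24.4% of uniquely aligned reads with DNMT1 siRNA, against at most 17.5% with negative siRNA. Reads on more than 1 gene, which is where reads of overlapping histone genes such as *Hist1h1e* and *Hist1h2be* can go, were at least 6.02% against at most 3.65%. Alignments that were not unique, which is where reads of near-identical histone genes go, were at least 48.3% against at most 42.5%. Silent receptor genes held 43.8 and 39.8 CPM in DNMT1 siRNA replicates 2 and 3, above the 13.4 of the highest negative siRNA library, and 2.66 in replicate 1. Their part in the histone counts was not tested. The receptor density corresponds to at most 0.917 reads per tested histone gene, but it did not follow the share of reads outside exons. In DNMT1 siRNA replicate 1 the density was the lowest of the 6 libraries, while 24.4% of uniquely aligned reads lay outside exons.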

How the results depend on the processing

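The 6 up-regulated histone genes became 4 with at least 10 counts in every sample (*Hist1h1d*, *Hist1h1e*, *Hist1h4d* and, gained, *Hist2h2be*), 9 without a filter, 9 with edgeR's exact test, 6 with DESeq2 (*Hist1h1a* lost, *Hist1h4a* gained), 6 with RLE, upper quartile, no limit on fold change or without short non-coding genes, and 2 at an FDR below 0.01 (*Hist1h1e*, *Hist1h4f*). Without a filter *Hist1h1a* was lost, and *Hist1h2be*, *Hist1h3c*, *Hist1h4a* and *Hist4h4* were gained. Leaving out 1 culture gave 1 to 6 up-regulated and 0 to 1 down-regulated histone genes (*Hist1h2af*, without negative siRNA replicate 3). With DNMT1 siRNA replicate 1 as the only DNMT1 siRNA culture, an alternative chosen after seeing the data that assumes it varies like the others, 0 histone genes passed, and 12 genes rose and 3 fell in all. Over all genes 296 rose and 124 fell at an FDR below 0.01, 1054 and 874 with no limit on fold change (then 1 S phase gene lower and 1 G2 and M phase gene higher) and 994 and 701 without a filter, and leaving out 1 culture gave 255 to 823 and 112 to 472. The log2 ratios of family sums without their most abundant member were 1.57 (H1), 0.67 (H2A), 0.73 (H2B) and 1.81 (H4). The H4 ratio was 0.89 with DNMT1 siRNA replicate 1 alone. Leaving out 1 culture, the H3 ratio ran from 0.85 to 1.44 and that of H1 from -0.13 to 0.03. The log2 fold change of *Hist1h3e* changed sign with upper quartile normalization (0.0017) and without DNMT1 siRNA replicate 1 (0.0217, against -0.109 without replicate 2), and that of *Hist1h2bg* without negative siRNA replicate 3 (-0.0869, against 0.712 without replicate 2). The cause of these changes was not tested. Same-numbered cultures did not deviate together (r = 0.0064, -0.021 and 0.027), and with the replicate number as a block 4 histone genes rose, and 513 genes rose and 285 fell in all. With 3 to 15 reads per library, counting error limits how precisely the folds of *Hist1h4f* and *Hist1h1a* are known.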
